A study of Mus musculus with 6 samples.

Results

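The neutrophil granule and S100 genes described here are Elane, Mpo, Ltf, Camp, Ngp, Lcn2, Mmp9, S100a8, S100a9 and Retnlg, 10 of the 54532 genes in the deposited table. They were picked by gene name, and the names were chosen because earlier results of these same libraries showed them far apart between Phf6 knockout (KO) and Phf6 wild-type (WT) bone marrow. Their levels in KO against WT are therefore given as a description with no test, and tests are kept for other genes. Levels are in FPKM, fragment counts scaled by gene length and by library size. Genes reaching an FPKM of 1 in 3 or more of the 6 libraries were compared, which all 10 did, along with the rest of the 13393 genes that passed.

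The study asked what loss of Phf6, a chromatin-associated zinc finger gene on the X chromosome, adds to a leukemia driven by JAK3 M511I, a mutant Janus kinase with raised activity. Bone marrow (BM) of C57BL/6 mice was taken 100 days after transplantation, and the labels give 3 RNA libraries as Phf6 WT (WT 1 to WT 3 here) and 3 as Phf6 KO (KO 1 to KO 3). Both groups shared the JAK3 M511I-GFP retrovirus, lineage-negative donor cells and male donors and recipients. In the study's methods WT is Phf6 fl/y and KO is Vav1-Cre;Phf6 fl/y, in which Cre under the blood-wide Vav1 promoter removes an internal part of Phf6. The digit after Phf in the genotype labels rises from sample to sample, and all were read as Phf6 from the design text. The labels name BM as the source and do not say whether cells were sorted before RNA was taken, whether host blood cells remained, or whether the libraries came from separate animals, so p-values measure only the spread between these libraries. FPKM covers the whole Phf6 gene, of which only an internal part is removed. Phf6 RNA so measured did not separate the groups (3.67 to 8.02 FPKM in WT and 5.11 to 6.73 in KO), so every direction rests on the labels. The lowest WT value was that of WT 2, and WT 1 (7.47) and WT 3 (8.02) lay above all KO libraries. Without WT 2 the difference still did not pass by limma (adjusted p = 0.0992).

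Neutrophils fill their granules in sequence as they mature in the marrow. Promyelocytes make the primary (azurophil) granule proteins, such as elastase and myeloperoxidase, while myelocytes and metamyelocytes make specific granule proteins such as lactoferrin and the cathelicidin, and gelatinase granules follow. S100a8 and S100a9 form calprotectin, the main cytosolic protein of neutrophils, which binds calcium and holds zinc and manganese from microbes. In BM these transcripts are a usual readout of granulocyte content, since T cells and T-lineage leukemia cells make few of them. Fewer neutrophils in a sample and less RNA of these genes per neutrophil cannot be told apart in bulk RNA.

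The 6 libraries held 13015823 to 18235095 fragments (called reads), recovered from the FPKM values and the gene lengths. WT 2 stood apart. Genes shorter than 1000 bases took 17.1% of its reads against 3.11% to 5.01% in the other libraries, genes of at least 8000 bases took 6.74% against 22.9% to 26.5%, and ribosomal protein genes took 24.9% against 5.76% to 7.89%. The FPKM values of WT 2 summed to 897352, against 244936 to 329893 in the other libraries. A given share of the total thus reads as a higher FPKM in WT 2. Values are therefore given with and without WT 2 below.

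Early and late granule genes are under the control of C/EBP and PU.1 factors in the textbook account of granulopoiesis, so the stretch before the start site was read for 9 members found in the RefSeq promoter table (GRCm38.p6). Within 250 bases before the start, the C/EBP letters TTGCNNAA, on either strand, were found in 5 of the 9 (S100a9, Retnlg, Ltf, Ngp and Lcn2), and in 9.56% of all 32851 promoters of that table. The start is that of RefSeq, which lies inside the deposited gene model for each of the 9 except S100a9 and Retnlg, and for Lcn2 the whole window lies inside it. The PU.1 letters AGGAAGT were found in 3 (S100a8, Elane and Mpo), against 7.69% of all promoters. The RUNX letters TGTGGT were found in S100a9 alone, against 14.0% of all promoters. A match of letters is a description and not a bound site. No 2 matches overlapped, and Camp held none of the 3. The early genes Elane and Mpo and the late genes Ltf and Ngp are shown because both early members carried the PU.1 letters and these late members the C/EBP letters. Capitals mark the matches, all sequences run 5′ to 3′ on the plus strand, which is the strand of the 4 genes, and each stops where the deposited gene model begins. Ngp held a second C/EBP match, at -11 to -4 from the RefSeq start, which is past that point and not shown. The windows are chr10:79886062-79886246 for Elane, chr11:87793534-87793580 for Mpo, chr9:111019042-111019270 for Ltf and chr9:110419558-110419746 for Ngp.
Elane: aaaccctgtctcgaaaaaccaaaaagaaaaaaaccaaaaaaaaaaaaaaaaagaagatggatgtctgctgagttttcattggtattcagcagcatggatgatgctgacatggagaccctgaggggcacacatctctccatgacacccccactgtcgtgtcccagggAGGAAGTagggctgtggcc
Mpo: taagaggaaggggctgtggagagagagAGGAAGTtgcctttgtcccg
Ltf: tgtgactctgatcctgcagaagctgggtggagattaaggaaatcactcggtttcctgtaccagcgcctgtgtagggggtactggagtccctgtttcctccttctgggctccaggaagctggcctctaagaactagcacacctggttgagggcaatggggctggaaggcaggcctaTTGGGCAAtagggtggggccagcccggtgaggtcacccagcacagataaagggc
Ngp: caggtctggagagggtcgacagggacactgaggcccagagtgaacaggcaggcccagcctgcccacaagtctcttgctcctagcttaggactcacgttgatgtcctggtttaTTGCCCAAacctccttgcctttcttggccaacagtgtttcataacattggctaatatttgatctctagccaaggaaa

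The early members were high in every WT library and low in every KO library. Elane (ENSMUSG00000020125, build GRCm38, chromosome 10, 79886247 to 79888215) encodes neutrophil elastase, a serine protease of primary granules. Its FPKM was 395, 1765 and 86.5 in WT 1, WT 2 and WT 3, and 4.09, 6.78 and 4.10 in KO 1, KO 2 and KO 3. The lowest WT library was 12.8 times the highest KO library. The means were 749 ± 893 (SD, n = 3) and 4.99 ± 1.55 (SD, n = 3), a 150-fold difference that came to 48.3-fold without WT 2. Mpo (ENSMUSG00000009350, chromosome 11, 87793581 to 87804413) encodes myeloperoxidase, the heme enzyme that makes hypochlorous acid. Its FPKM was 249, 528 and 51.8 in WT and 2.46, 2.88 and 2.12 in KO. The KO libraries lay close together here, with a mean of 2.49 ± 0.377 (SD, n = 3) against 276 ± 239 (SD, n = 3) in WT. That is 111-fold, and 60.4-fold without WT 2. An antisense gene, Gm11505, overlaps Mpo and had at most 2 reads in any library.

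**Figure D1:**
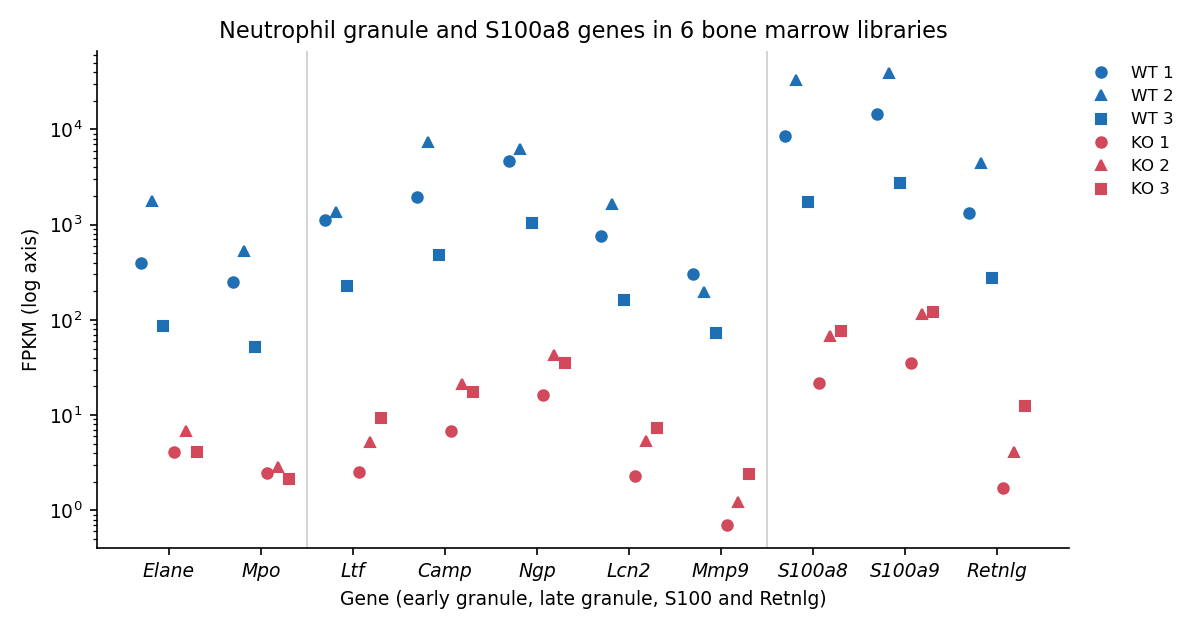
FPKM (log axis) of the 10 genes in each library, with WT libraries in blue and KO libraries in red, and circles, triangles and squares for libraries 1, 2 and 3. For every gene the 3 WT points sit above the 3 KO points, and in 9 of 10 genes the highest point is WT 2. The FPKM are not rescaled to the library sum, which was highest in WT 2.

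The late members were separated in the same way, and all but Mmp9 had higher mean WT levels than Elane. Ltf (ENSMUSG00000032496, chromosome 9, 111019271 to 111042767) encodes lactoferrin, which binds iron in specific granules. Its FPKM was 1113, 1375 and 225 in WT and 2.54, 5.21 and 9.22 in KO. WT 1 and WT 2 were close to each other for Ltf, and the means of 904 ± 603 (SD, n = 3) and 5.65 ± 3.36 (SD, n = 3) were 160-fold apart (118-fold without WT 2). Camp (ENSMUSG00000038357, chromosome 9, 109847379 to 109849617), the mouse cathelicidin precursor, had an FPKM of 1935, 7299 and 476 in WT and of 6.80, 21.1 and 17.6 in KO. WT 2 was the highest library by far for this short gene. The means were 3237 ± 3593 (SD, n = 3) and 15.2 ± 7.46 (SD, n = 3), and the fold went from 213 to 79.4 without WT 2. Ngp (ENSMUSG00000032484, chromosome 9, 110419747 to 110423012), a cystatin-like protein of specific granules, had an FPKM of 4623, 6178 and 1051 in WT and of 16.2, 43.2 and 35.4 in KO. Its means were 3951 ± 2629 (SD, n = 3) and 31.6 ± 13.9 (SD, n = 3), or 125-fold (89.7-fold without WT 2). Lcn2 (ENSMUSG00000026822, chromosome 2, 32384633 to 32388252) encodes lipocalin 2, which captures bacterial siderophores. Its FPKM was 758, 1646 and 162 in WT and 2.27, 5.30 and 7.34 in KO. The means of 855 ± 747 (SD, n = 3) and 4.97 ± 2.55 (SD, n = 3) were 172-fold apart (92.5-fold without WT 2). Mmp9 (ENSMUSG00000017737, chromosome 2, 164940780 to 164955850) encodes gelatinase B, the protease that names the gelatinase granules. Its FPKM was 303, 196 and 72.8 in WT and 0.698, 1.22 and 2.42 in KO. Its means were 191 ± 115 (SD, n = 3) and 1.45 ± 0.884 (SD, n = 3). Mmp9 was the only member whose highest library was WT 1, and its fold hardly moved without WT 2 (132-fold with it and 129.9-fold without it).

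S100a8, S100a9 and Retnlg are genes of the later neutrophil, and they had the highest WT levels together with Ngp and Camp. S100a8 (ENSMUSG00000056054, chromosome 3, 90668978 to 90670035) had an FPKM of 8503, 33166 and 1725 in WT and of 21.9, 67.1 and 77.1 in KO. KO 1 was the lowest KO library, and the means of 14465 ± 16547 (SD, n = 3) and 55.3 ± 29.4 (SD, n = 3) were 261-fold apart (92.4-fold without WT 2). S100a9 (ENSMUSG00000056071, chromosome 3, 90692632 to 90695721), its partner in calprotectin and its neighbour on the chromosome, had an FPKM of 14451.5, 38832.5 and 2717 in WT and of 35.3, 115 and 121 in KO. Its means were 18667 ± 18423 (SD, n = 3) and 90.3 ± 47.8 (SD, n = 3), or 207-fold (95.02-fold without WT 2). The 2 genes kept nearly 1 ratio to each other, with S100a9 at 1.17 to 1.70 times S100a8 in WT and 1.57 to 1.71 times in KO. By FPKM, S100a9 was the most abundant of all genes in WT 1 and WT 2 and stood at rank 5 in WT 3, while it stood at rank 1250 in KO 1 and 265 in KO 2 and KO 3. Retnlg (ENSMUSG00000022651, chromosome 16, 48872621 to 48874496), a resistin-like secreted protein of mature neutrophils, had an FPKM of 1328, 4471 and 276 in WT and of 1.72, 4.07 and 12.4 in KO. Its KO libraries were the most spread of the 10 genes, with means of 2025 ± 2183 (SD, n = 3) and 6.05 ± 5.59 (SD, n = 3). It had the greatest difference of means among the 10, 335-fold (133-fold without WT 2).

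Across the 10 genes the fold of WT over KO ran from 111 for Mpo to 335 for Retnlg, and without WT 2 from 48.3 for Elane to 133 for Retnlg. The log2(FPKM + 1) difference, KO minus WT, ran from -7.70 (Retnlg) to -5.78 (Mpo) with a median of -6.79 (-6.11 without WT 2), beside a median of 0.086 over all 13393 genes. Every KO library lay below every WT library for 10 of 10 genes, which was so for 22.9% of the genes tested. All 10 also passed the limma threshold (adjusted p under 0.05) as lower in KO, against 13.3% of the genes tested. Because the 10 were chosen on this contrast, nothing is read from either count. Together they took 2.97%, 4.66% and 0.650% of the reads in WT 1, WT 2 and WT 3 and 0.0104%, 0.0279% and 0.0291% in KO 1, KO 2 and KO 3. Of the summed FPKM they made up 10.2%, 10.6% and 2.24% in WT and 0.0383%, 0.108% and 0.112% in KO. Even so, these genes were counted in each KO library, from 19 reads (Retnlg in KO 1) to 1017 reads (S100a9 in KO 3).

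The WT libraries differed among themselves by a nearly common factor when WT 2 is set aside. WT 1 was higher than WT 3 for all 10 genes, by 4.06 (Camp) to 5.32 times (S100a9) with a median of 4.75, whatever the granule class. Early members (4.57 for Elane, 4.80 for Mpo) sat within the range of the late members (4.06 to 4.95). WT 2 over WT 1 was far less even, from 0.645 for Mmp9 to 4.46 for Elane. The 4 shortest members, S100a9, Retnlg, S100a8 and Camp (522 to 758 bases), had ratios of 2.69 to 3.90, while the 3 longest, Mpo, Ltf and Mmp9 (3424 to 3539 bases), had 2.12, 1.23 and 0.645. Between them in length, Elane (984 bases) was at 4.46, Ngp (1222 bases) at 1.34 and Lcn2 (2623 bases) at 2.17. The ratio thus did not follow length throughout. WT 2 also held more reads in short genes as a whole and had the highest FPKM sum. The part of these in the members' levels was not tested.

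**Figure D2:**
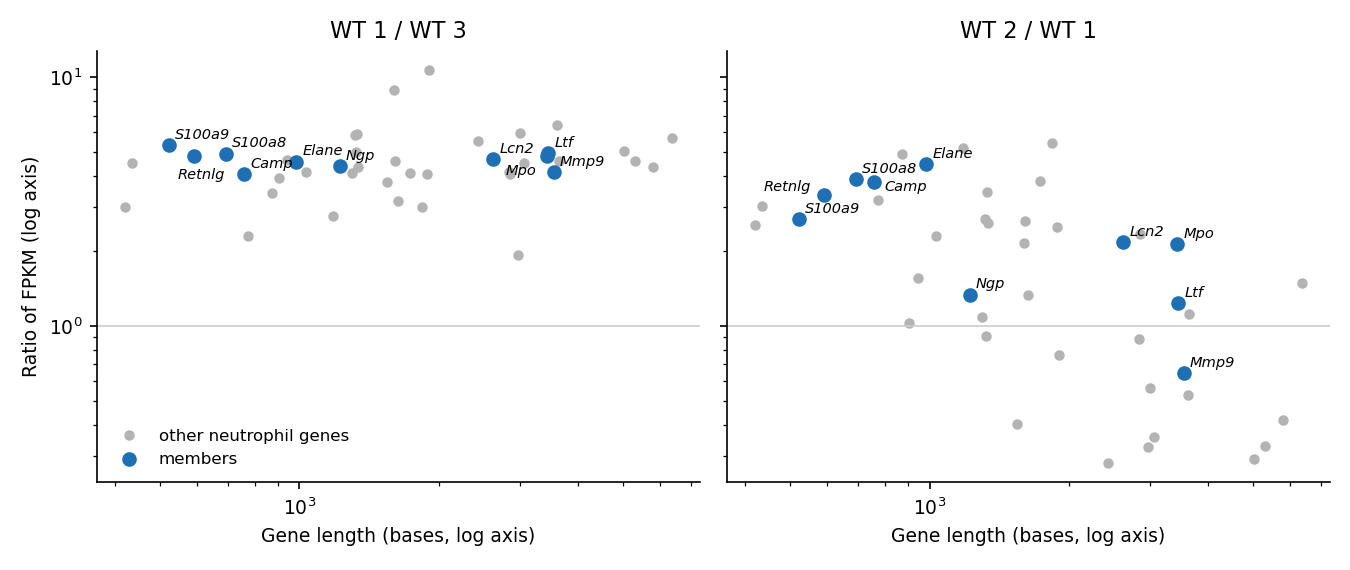
Ratio of FPKM between WT libraries (log axis) against gene length in bases (log axis), for the 10 members (blue, named) and 33 other neutrophil genes (grey). In WT 1 over WT 3 the members lie in a flat band from 4.06 to 5.32. In WT 2 over WT 1 they run from 4.46 for Elane, under 1000 bases, to 0.645 for Mmp9, the longest, without a steady fall with length.

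Early and late granule genes were then contrasted within each library. The mean log2(FPKM + 1) of Ltf, Camp, Ngp, Lcn2 and Mmp9 exceeded that of Elane and Mpo by 1.91, 0.91 and 1.98 in WT 1, WT 2 and WT 3 and by 0.20, 0.82 and 1.52 in KO 1, KO 2 and KO 3. The means were 1.60 ± 0.59 (SD, n = 3) in WT and 0.85 ± 0.66 (SD, n = 3) in KO, a difference of -0.75 (-1.09 without WT 2), and the groups overlapped because WT 2 lay below KO 3. With WT 2 left out, both remaining WT libraries lay above all 3 KO libraries. Groups of 3 and 3 cannot reach an exact two-sided permutation p under 0.1, and no test was made of a contrast that was chosen with these genes.

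Ratios of single pairs of genes were taken on FPKM with nothing added. The ratio of Ltf to Mpo was 4.48, 2.60 and 4.34 in WT and 1.03, 1.81 and 4.34 in KO. KO 3 thus carried as much lactoferrin RNA per myeloperoxidase RNA as WT 3, and KO 1 carried the least. Ngp over Elane was 11.7, 3.50 and 12.1 in WT and 3.95, 6.38 and 8.63 in KO, where WT 2 was the lowest of all 6 libraries. Retnlg over Elane was 3.36, 2.53 and 3.19 in WT and 0.420, 0.601 and 3.01 in KO. KO 1 and KO 2 lay under the WT range for this pair while KO 3 lay inside it. Mmp9 over Mpo was 1.22, 0.370 and 1.41 in WT and 0.283, 0.424 and 1.14 in KO. Elane over Mpo, both early genes, was 1.59, 3.34 and 1.67 in WT and 1.66, 2.36 and 1.93 in KO, so the early pair did not order the libraries by group.

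**Figure D3:**
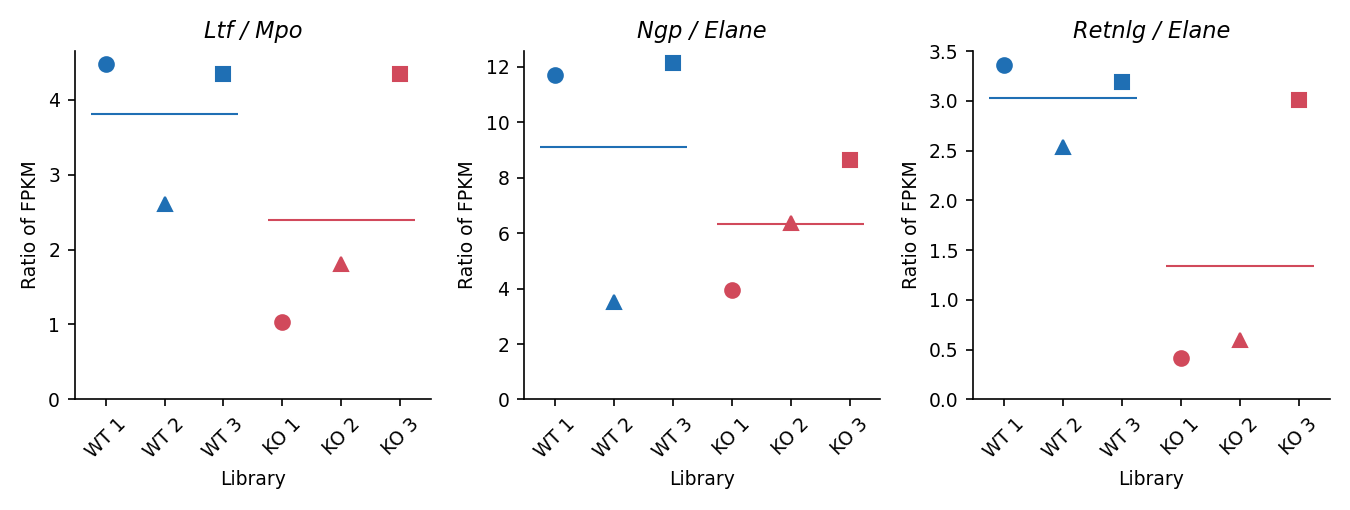
Ratio of the FPKM of a late gene to that of an early gene in each library (linear axes from 0), with WT in blue, KO in red and a line at the mean of each group of 3. KO 3 reaches the WT range for Ltf over Mpo (4.34) and Retnlg over Elane (3.01), whereas KO 1 is at 1.03 and 0.420.

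The spread among the KO libraries differed between the early and the other members. The pair KO 3 and KO 1 was picked after these values were seen and is 1 library against 1, so the intervals given are exact 95% intervals for counting error only. Mpo was at 0.862 times (0.673 to 1.10) and Elane at 1.00 times (0.708 to 1.42) the KO 1 level in KO 3. All 5 late members were higher in KO 3, from 2.19 times (1.93 to 2.49) for Ngp to 3.63 times (3.04 to 4.36) for Ltf. S100a8 was at 3.52 times (3.07 to 4.04), S100a9 at 3.43 times (3.03 to 3.89) and Retnlg at 7.19 times (4.40 to 12.4). Hence 8 of the 10 genes reached a ratio of 2, and both that did not were the early ones. Over all 16303 genes with at least 10 reads in the pair the median ratio was 0.995, and 6.52% reached 2. KO 2 over KO 1 was less clearly split, with 1.17 for Mpo and 1.66 for Elane beside 1.75 (Mmp9) to 3.25 (S100a9) for the others.

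Other neutrophil genes were read the same way. None of 4 other early genes reached a KO 3 over KO 1 ratio of 2, with Prtn3 (proteinase 3) at 1.40, Ctsg (cathepsin G) at 0.753, Ms4a3 at 0.555 and Prss57 at 1.79. Of 13 other specific granule genes, 6 reached 2 and the median was 1.91. Among these, Lyz2 (lysozyme) was at 5.56 times (4.22 to 7.43), but Chil3, a chitinase-like secreted protein, was at 0.982 times (0.813 to 1.19). Of 15 other mature neutrophil genes with at least 10 reads in the pair, 8 reached 2 and the median was 2.31. Csf3r, the receptor for G-CSF, at 7.81 times (3.69 to 19.0) and Cxcr2, the chemokine receptor of mature neutrophils, at 6.94 times (2.90 to 20.2) are named after their values were seen. Read counts were low, with 54 and 8 reads for Csf3r in KO 3 and KO 1.

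**Figure D4:**
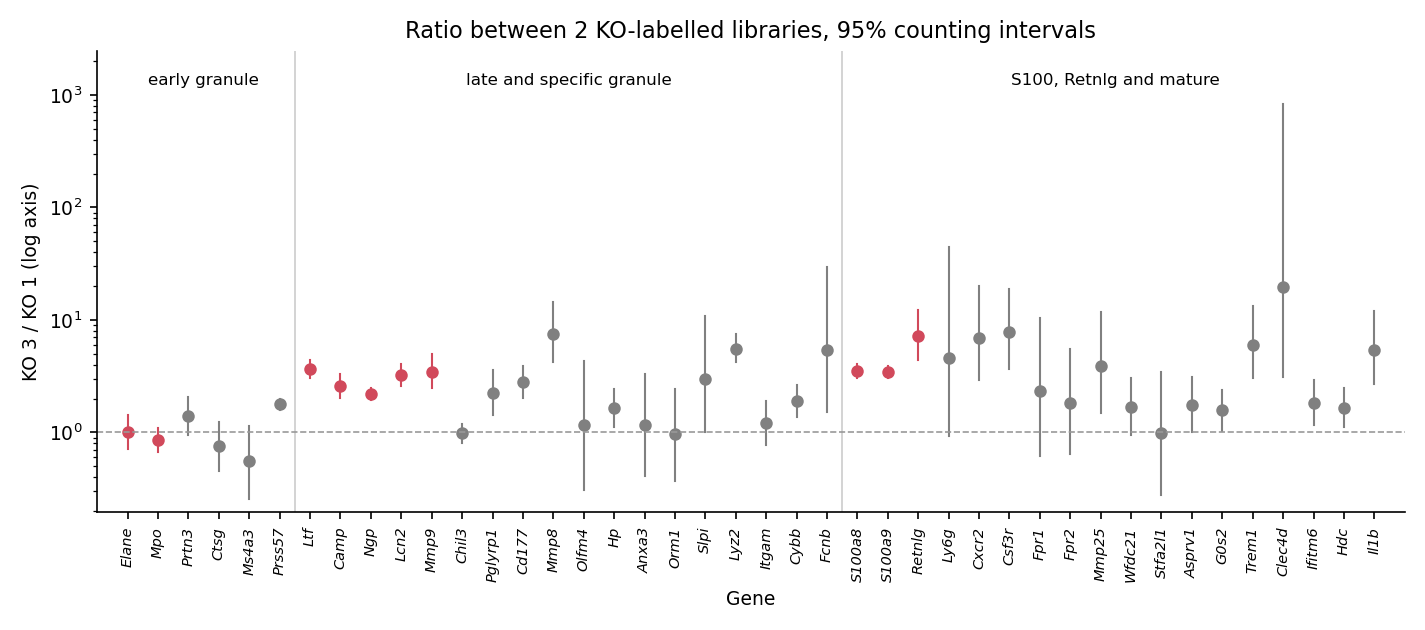
Ratio of KO 3 to KO 1 (log axis) for members (red) and other neutrophil genes (grey), in order of granule class, with exact 95% counting intervals. The 2 early members lie at 0.862 and 1.00, the other 8 members lie between 2.19 and 7.19, and the grey genes are more scattered.

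Outside the 10, the fall of neutrophil genes in KO was tested by limma on 33 other genes of 3 lists. It reached 31 of the 33 (adjusted p under 0.05), with none higher, beside 13.3% of all genes tested. The median difference was -5.14 (-4.78 without WT 2) on the log2(FPKM + 1) scale, beside 0.086 for all genes. Without WT 2, 32 were lower and 1 was higher, beside 25.3% and 26.8% of all genes. These lists were written with results of these libraries known. Named here after their values were seen, Olfm4, Anxa3, Orm1, Slpi, Itgam and Fcnb stayed under an FPKM of 1 in every KO library. So did Ly6g, Cxcr2, Csf3r, Fpr1, Fpr2, Mmp25, Clec4d, Hdc and Mrgpra2b. These genes met the filter through WT alone, so they could pass only as lower. The same holds in the lists below for genes under 1 in every KO library. With no filter on low values, 31 of the 33 were lower.

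Of the 4 other early genes, 3 fell. Prtn3 had an FPKM of 197, 754 and 47.7 in WT and of 1.64, 3.37 and 2.30 in KO, and its difference was -5.85 with an SE of 0.93 (limma, adjusted p = 0.0055). Ctsg was at -5.31 (adjusted p = 0.0044) and Ms4a3 at -4.51 (adjusted p = 0.0074) on the same scale. Prss57, the primary granule protease NSP4, stood apart from them. Its FPKM was 7.11, 16.6 and 1.75 in WT and 9.82, 10.6 and 17.5 in KO, and the groups overlapped (0.85, limma adjusted p = 0.403). Without WT 2 it passed as higher in KO, with a difference of 1.49 (adjusted p = 0.0458).

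All 13 other specific granule genes fell, with a median of -5.69. Lyz2 had an FPKM of 1687, 4544 and 289 in WT and of 2.53, 8.11 and 14.1 in KO, a difference of -7.38 with an SE of 1.06 (limma, adjusted p = 0.0038). The difference was -5.69 for Chil3, -6.44 for Hp (haptoglobin) and -6.56 for Pglyrp1, a peptidoglycan-binding granule protein (adjusted p 0.0014, 0.0029 and 0.0039). Of the 16 other mature neutrophil genes, 15 fell, with a median of -4.92. The difference was -6.24 for Wfdc21, -6.23 for Ifitm6, -5.67 for Il1b, which encodes an inflammatory interleukin, and -5.12 for Stfa2l1 (adjusted p 0.0011 to 0.0051). The exception was G0s2, with 27.2, 134 and 7.93 in WT and 2.59, 5.40 and 4.07 in KO (-2.73, limma adjusted p = 0.0767), which passed without WT 2 (adjusted p = 0.0343).

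**Figure D5:**
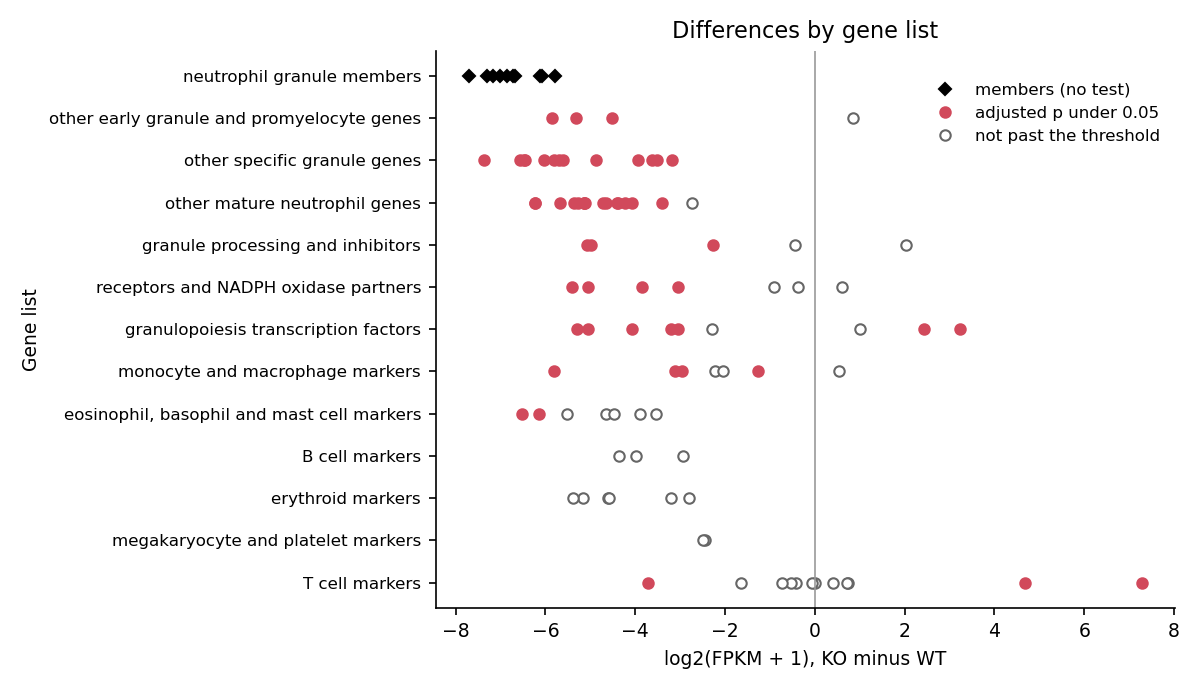
Difference in log2(FPKM + 1), KO minus WT, of each gene by list, with members as black diamonds (no test), genes past the limma threshold as red points and other genes as open circles. Members lie from -7.70 to -5.78, and of the 33 genes in the next 3 lists 31 are red and left of 0.

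Genes that ready, package or restrain granule proteases moved less evenly. Of 7 genes on this list, 5 were tested and 3 fell, beside 13.3% of all genes, while Timp1 and Timp3 were under the FPKM minimum. The difference was -4.98 for Cst7, which encodes cystatin F (limma, adjusted p = 0.0004), -5.07 for Serpinb1a, an inhibitor of elastase (adjusted p = 0.0025), and -2.27 for Srgn, the granule proteoglycan serglycin (adjusted p = 0.0186). Srgn did not pass when any 1 KO library was left out (adjusted p 0.058 to 0.086). WT 1 and WT 3 were nearer to each other for Cst7 (116 and 91.5 FPKM) and Srgn (247 and 168) than for Serpinb1a (105 and 28.2). For the 10 members WT 1 was at least 4.06 times WT 3. Which cells gave the Cst7 and Srgn RNA was not tested. Ctsc, which activates elastase and cathepsin G, had an FPKM of 16.1 to 22.5 in WT and of 10.1 to 15.9 in KO (-0.44, adjusted p = 0.294). Timp2, a metalloproteinase inhibitor, was at 3.38 to 25.3 in WT and 39.3 to 54.7 in KO, a difference of 2.02 that did not pass (adjusted p = 0.0618) but did so without WT 2 (adjusted p = 0.0076).

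Among 9 receptors for S100 proteins and partners of the NADPH oxidase, 7 were tested and 4 fell, against 13.3% of all genes. Tlr4 and Slc22a17 were under the FPKM minimum and not tested. Tlr4 was at 2.94, 1.15 and 0.824 in WT and at most 0.0915 in KO. The difference was -5.40 for Ncf1 and -3.84 for Ncf4, both cytosolic subunits of the oxidase, and -5.06 for Cd14, a co-receptor of endotoxin (adjusted p 0.0018 to 0.0071). Cyba, the membrane subunit p22phox, had an FPKM of 212, 1234 and 121 in WT and of 33.7 to 41.0 in KO (-3.04, limma adjusted p = 0.0382). Cyba did not pass when any KO library, or WT 1, was left out, nor with no filter on low values (adjusted p 0.0692 to 0.130). Bsg, a receptor for S100a9, was at 64.7 to 245 in WT and 51.0 to 59.1 in KO (-0.91, adjusted p = 0.259). Ly96 (-0.38, adjusted p = 0.449) and Ager, the receptor RAGE (0.60, adjusted p = 0.461), did not pass either. Without WT 2, Ager passed as higher in KO (1.22, adjusted p = 0.0031).

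The transcription factors of granulopoiesis split by direction. Of 9 measured, 5 fell and 2 rose, beside 13.3% and 13.1% of all genes. Spi1, which encodes PU.1, had an FPKM of 67.7, 159.5 and 13.3 in WT and of 0.359, 0.448 and 0.323 in KO (-5.30, limma adjusted p = 0.0051). Cebpe, the factor of specific granule genes, was at 52.9, 189.5 and 10.6 in WT and 0.0433, 1.02 and 0.551 in KO (-5.05, adjusted p = 0.0106). KO 1 was lowest for Cebpe, with 1 read. The difference was -4.08 for Cebpb, -3.19 for Cebpd and -3.04 for Cebpa, needed for entry into the granulocyte line (adjusted p 0.0037, 0.0129 and 0.0142). Cebpa did not pass when any 1 KO library was left out (adjusted p 0.0579 to 0.0611), Cebpe did not pass without KO 1 (adjusted p = 0.0519), and Cebpd passed under 10 of 13 alternatives (adjusted p up to 0.0586). Gfi1, a repressor that works in both granulocyte and T cell precursors, rose from 5.26 to 9.37 FPKM in WT to 30.5 to 65.5 in KO (2.43, adjusted p = 0.0042). Myb, a factor of immature blood cells and of thymocytes, was at 7.25, 12.7 and 3.06 in WT and 82.65, 81.8 and 52.9 in KO (3.22, adjusted p = 0.0042). Irf8 (-2.28, adjusted p = 0.0551) and Runx1 (1.01, adjusted p = 0.170) did not pass, and both passed without WT 2 (adjusted p 0.0074 and 0.0086).

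Markers of other cells moved beside the granule genes, and their part in these differences was not tested. The summed FPKM of 12 T cell markers was 1357, 2654 and 1466 in WT and 1616, 1474 and 1317 in KO, and the groups overlapped. These sums are not rescaled to the FPKM of all genes, which summed to 305933 to 897352 in WT and 244936 to 256722 in KO. As a share of all FPKM, the T cell markers were higher in every KO library than in every WT library. Within the T cell list 1 gene fell (Trac, -3.72) and 2 rose, beside 13.1% of all genes higher. The latter were Cd4 (4.67) and Ptcra, the pre-T-cell receptor alpha chain, which was listed at 0 in all WT libraries and at 137 to 167 FPKM in KO. Without WT 2, 3 of the 12 were lower (Trac, Cd8b1 and Thy1) and 4 higher (Cd4, Ptcra, Lck and Cd3g), beside 25.3% and 26.8% of all genes. Among 9 monocyte and macrophage markers, Ly6c2 alone was at 260, 361 and 282 FPKM in WT and at 3.70 to 5.69 in KO. It made up most of the WT sums. The summed level of all 9 markers was 305 to 469 in WT and 9.61 to 12.2 in KO. Of the 7 tested, 4 were lower, beside 13.3% of all genes, namely Ly6c2 (-5.80, adjusted p = 0.0002), Ccr2 (-3.12, adjusted p = 0.0020), Csf1r and Cx3cr1, of which Csf1r passed under 10 and Cx3cr1 under 11 of 13 alternatives. Without WT 2, C1qa and C1qb passed as well, which made 6 lower, beside 25.3% of all genes. B cell and erythroid markers were high in WT 2 above all. The B cell sum was 11.1, 1066 and 17.1 in WT and 1.10 to 1.38 in KO, and the erythroid sum was 137, 68069 and 528 in WT and 10.8 to 121 in KO. None of the 3 B cell genes, 6 erythroid genes or 2 megakaryocyte genes tested passed the limma threshold, and without WT 2 all 3, 2 and 2 of them did, each as lower in KO, beside 25.3% of all genes.

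Over the 6 libraries, the genes closest in profile to Elane and Mpo were Prtn3, Wfdc21, I830127L07Rik, Fcnb and Hp, at a root mean square distance of 0.16 to 0.32 on the centred log2(FPKM + 1) scale. The 2 members themselves lay at 0.20 from their mean. Prtn3 neighbours Elane on chromosome 10 and was the nearest, at 0.16. For the late granule members the closest were Hp, S100a6, Ifitm6, Cd177 and Wfdc21, at 0.37 to 0.44, while the members lay at 0.17 to 0.55 from their own mean. Hp and Wfdc21 were on both lists. These 6 points share 2 groups and the high WT 2 library, and the distances are a description with no test.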

How the data were processed

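The authors sequenced paired-end libraries of total RNA, from cells the labels give as BM, on an Illumina NovaSeq instrument. The submitters' processing notes name HISAT2 (2.0.5), featureCounts (1.5.0-p3) and the builds GRCm38 and mm10, and the use of strand is not given in the sources used here. The deposited table holds FPKM per gene for each of the 6 libraries, made by the authors with a scaling factor per library. Multiplying FPKM by gene length gave whole numbers of a unit step for 100% of values (tolerance 0.01). The library size so implied was 0.645 (WT 2) to 1.21 (KO 2) times the recovered read total. A count of 0 allows up to 3 reads. Intervals and floors cover counting error only.

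The study used a count model, but the unit is FPKM, so limma (3.58.1, lmFit, eBayes with trend, two-sided) was run in R 4.3.3 on log2(FPKM + 1), which understates changes of low genes, over genes whose FPKM reached 1 in 3 or more libraries, with Benjamini-Hochberg adjustment and a threshold of 0.05. The model was tested on simulated data. Tables were made in Python (3.11.15) with SciPy (1.17.1), NumPy (2.4.6) and pandas (2.3.3), plots with Matplotlib (3.10.9), and files were read in R with the data.table package (1.17.8). The members and the 12 gene lists were chosen with earlier results of these data known. Genes named are the members, Phf6, the 4 genes of each list with the highest mean FPKM (more where a count of 5 or fewer is named) and the 5 nearest profiles. A result for 1 listed gene is not reported, and the gene was left out of its list. Other genes are said to be named after their values were seen. Alternatives were a pseudocount of 0.1, no filter, TPM, median-of-ratios scaling, voom on recovered reads, array weights, a replicate block and leaving out each library. RefSeq promoters (GRCm38.p6) were searched on both strands for TTGCNNAA, AGGAAGT and TGTGGT.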

Additional observations from a re-analysis of the deposited data

How the results depend on the processing

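The 10 members gave 130 values under 13 alternatives, from -8.74 to -4.99 on the log2 scale, and all stayed negative. Of these, 129 moved by less than the spread between replicates, and Mmp9 moved to -7.02 with voom. Their median lay between -7.66 and -6.11 when 1 library was left out, and the late minus early difference between -1.09 and -0.43. The count of other neutrophil genes lower in KO was 29 to 32 when 1 library was left out and 31 or 32 under the other alternatives. Over all genes, 1785 were lower and 1754 higher, against 1081 and 2279 after rescaling to TPM, where the median of all genes rose from 0.086 to 0.86. Array weights, which gave WT 2 a weight of 0.0509, called 4073 and 4388. With 1 library left out the counts ran from 996 to 3383 lower and from 938 to 3584 higher. Both maxima (3383 and 3584) came without WT 2, and leaving out KO 1, KO 2 or KO 3 gave 1082, 996 and 1059 lower and 989, 938 and 962 higher. The cause was not tested. Single genes were counted for Phf6, Gfi1, Cebpa and the tested genes among the 4 of each list with the highest mean FPKM. Among these, Thy1 changed sign with TPM (0.11). Phf6 did so with TPM (0.69), without WT 1 (0.055) and without WT 3 (0.10), while Phf6 was -0.37 without WT 2. None of these 4 values passed the threshold. Of the values for this set of genes, 550 stayed on the same side, 46 came to pass and 24 no longer passed. Other named genes were not in that count. Of those, Ctsc, Ly96 and Cd3g also changed sign under an alternative, reaching 0.36, 0.18 and 0.83.

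The labels number replicates 1 to 3 in both groups. The correlations of deviations from the group means were 0.0954, 0.105 and -0.153 for equal numbers, and -0.195 to 0.232 for unequal numbers. No deviation shared by equal numbers was seen. With 3 libraries a group this cannot tell whether libraries of equal number were handled together. With the replicate block, 1469 genes were lower and 1207 higher, 31 other neutrophil genes were lower, and Timp2 came to pass (adjusted p = 0.0453). Depth limits the KO values of Retnlg and Mmp9 most, with 19 and 46 reads in KO 1, and 3 libraries a group limit all tests.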

Other observations

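Granule genes of eosinophils and basophils were also measured. The summed FPKM of 9 eosinophil, basophil and mast cell genes came to 372, 6859 and 44.5 across the WT libraries against 1.89 to 3.27 in KO, and WT 2 was highest and WT 3 lowest, as for 9 of the 10 members. Of 7 genes tested, 2 were lower in KO by limma, beside 13.3% of all genes, and none was higher. The median difference was -4.64, beside 0.086 over all genes, and without WT 2 it was -2.89 with 6 lower, beside 25.3% of all genes. Prg2, the eosinophil major basic protein, had an FPKM of 247, 2003 and 14.9 in WT and of 0.641, 1.44 and 1.56 in KO (-6.52, adjusted p = 0.0267). Prss34, a basophil protease, was at 24.5, 1421 and 13.6 in WT and 0.0883, 0.261 and 0.102 in KO (-6.14, adjusted p = 0.0356). Neither passed when WT 1 or any 1 KO library was left out, with no filter on low values or with voom (adjusted p 0.0521 to 0.114). Mcpt8, another basophil protease, was at 10.97, 2137 and 6.34 in WT and at most 0.323 in KO (-5.52, adjusted p = 0.101), and it passed without WT 2 (adjusted p = 0.0005). Ear1, an eosinophil ribonuclease, was at 22.8, 312 and 1.86 in WT and at most 0.170 in KO (-4.64, adjusted p = 0.0720). KO libraries held 1 to 21 reads of Prg2, Prss34, Mcpt8 and Ear1.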
